A study of Mus musculus with 3 samples.

Results

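The nuclear-encoded subunits of the mitochondrial respiratory chain were followed in cells sorted from mouse hearts under 3 diets. Their genes were taken by symbol and Ensembl ID: every gene listed in all 3 libraries whose CD symbol belongs to a subunit family of complex I (Nduf), complex II (Sdh), complex III (Uqcr), complex IV (Cox4 to Cox8 with a letter) or complex V (Atp5). The muscle isoforms Cox6a2, Cox7a1 and Cox8b, pseudogenes and Ndufaf assembly factors were left out. This gave 78 of 30406 shared genes, with 37 in complex I, 4 in complex II, 8 in complex III, 13 in complex IV and 16 in complex V. The symbol rule places Ndufa4, now regarded as a complex IV subunit, and its relative Ndufa4l2 with complex I, and it misses the true subunits Cyc1, Cox4i1 and Ndufab1, which are given separately. All 78 genes are annotated as protein coding, lie on 19 chromosomes (GRCm38, GENCODE vM21), and include 3 on X and 0 on the mitochondrial genome.

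All mice were wild type and 32 to 34 weeks old. There was 1 library from mice on a control diet (CD), 1 from mice on a diet high in fat (HFD) and 1 from mice on a Western diet (WD). The sources used here do not give sex, strain, diet composition or the number of mice pooled. Hearts were digested with collagenase, and single live cells positive for CD45 (leukocytes), CD11b (myeloid cells) and F4/80 (mouse macrophages) were sorted for droplet-based 3′ RNA sequencing, in which each unique molecular identifier (UMI) stands for 1 captured transcript. Barcodes were kept from 1000 UMIs and 200 genes upward if mitochondrial UMIs did not exceed 10%, which gave 2679 CD, 2717 HFD and 4775 WD cells. Cells in which C1qa, C1qb and C1qc, complement genes typical of tissue macrophages, made up at least 0.3% of UMIs were called C1q-high: 2293 (CD, 85.6%), 2002 (HFD, 73.7%) and 3717 (WD, 77.8%). The rest, 386, 715 and 1058 cells, were called C1q-low.

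The division by C1q is a range and not a cell type, and 27 CD, 25 HFD and 444 WD cells had a share between 0.2% and 0.4%. Levels are given as CPM, UMIs scaled to a total of 1000000. The C1q genes define the classes and were left out of the marker check. The summed level of the other 7 macrophage markers was 3408 CPM (CD), 3477 (HFD) and 4607 (WD) in C1q-high cells. In C1q-low cells it was 641, 360.5 and 1669 CPM. C1q-low cells of CD and HFD instead carried 10 endothelial markers at 12733 and 15652 CPM, against 55.7 CPM in WD, so in CD and HFD the markers of the labelled cell type were low in C1q-low cells and below those of endothelial cells. In C1q-low cells an erythroid list of 4 genes stood at 12310 CPM (CD), 5.28 (HFD) and 3319 (WD), and the mixture thus differed between libraries. The WD library also stood apart technically. It held 79269380 UMIs, against 17464149 in CD and 16630481 in HFD, and its matrix was written by software version 7.2.0 and not 3.0.1. The CD file lists 737280 barcodes. Of the HFD barcodes checked 100% occur in that list, but only 92 of the 6885 WD barcodes (1.34%). The WD barcodes thus came mostly from outside the list that CD and HFD share, although the labels give the same kit for all. Differences of the WD diet from the other diets cannot be told apart from these technical differences. A single library for each diet allows no test of diet, and all 95% intervals below cover counting error only.

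The respiratory chain moves electrons from NADH and succinate to oxygen through complexes I to IV and pumps protons, and complex V, the ATP synthase, uses the proton gradient to make ATP. Its subunits are encoded partly by the mitochondrial genome, which supplies membrane-embedded core subunits, and mostly by nuclear genes, whose transcription is coordinated through factors such as NRF1, the ETS factor GABP and YY1. Macrophages shift between oxidative and glycolytic metabolism with their activation state, and the working heart muscle around them is among the tissues richest in mitochondria.

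RefSeq promoter windows (GRCm38.p6, 250 bases before to 50 after a start) were found for 66 of the 78 genes, with 71 windows, and were searched on both strands for 3 motifs: the palindrome of NRF1 (GCGCA and GCGC with 1 base between them), CCGGAAG (ETS) and AANATGGC (YY1). Each motif was counted on its own, so a window can hold several of them and matches may overlap. At least 1 of them occurred in 62.0% of the members' windows, against 34.6% of 8878 windows of genes with at least 100 UMIs in CD and HFD C1q-high cells and 17.4% of all windows. The NRF1 letters occurred in 25.4% of the members' windows, against 11.0% of expressed and 4.60% of all windows. For YY1 the shares were 23.9%, 9.30% and 6.05%, and for ETS 22.5%, 19.9% and 8.86%. Median GC content was 57.7% in the members' windows and 61.0% in expressed windows. A match is a description of letters and not a site. The stretches below, which lie before the start and outside annotated exons, belong to the pair of members with the highest CD level that hold each motif there. The stretches are shown as examples of these letters outside annotated exons, from members of different complexes. Capitals mark the matches to NRF1 in Cox6a1 and Atp5h, to ETS in Atp5l and Uqcrh, and to YY1 in Ndufb10 and Ndufs8.
Cox6a1 (complex IV, chr5:115348982-115349129, minus strand): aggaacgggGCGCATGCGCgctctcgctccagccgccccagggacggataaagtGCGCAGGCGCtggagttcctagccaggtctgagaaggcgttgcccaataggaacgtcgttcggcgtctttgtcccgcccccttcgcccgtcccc
Atp5h (complex V, chr11:115419978-115420127, minus strand): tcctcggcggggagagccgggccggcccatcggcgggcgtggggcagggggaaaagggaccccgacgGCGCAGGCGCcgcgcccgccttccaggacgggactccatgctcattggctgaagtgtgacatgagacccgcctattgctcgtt
Atp5l (complex V, chr9:44920843-44920992, minus strand): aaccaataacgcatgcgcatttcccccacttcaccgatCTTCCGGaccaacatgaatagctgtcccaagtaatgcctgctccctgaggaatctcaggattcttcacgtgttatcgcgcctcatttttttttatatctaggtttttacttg
Uqcrh (complex III, chr4:116075072-116075221, minus strand): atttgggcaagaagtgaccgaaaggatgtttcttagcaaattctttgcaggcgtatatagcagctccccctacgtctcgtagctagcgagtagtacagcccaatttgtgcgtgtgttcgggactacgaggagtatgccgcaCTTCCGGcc
Ndufb10 (complex I, chr17:24724524-24724673, minus strand): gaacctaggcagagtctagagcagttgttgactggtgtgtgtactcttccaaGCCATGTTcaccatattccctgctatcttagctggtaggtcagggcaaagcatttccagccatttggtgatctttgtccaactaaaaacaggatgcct
Ndufs8 (complex I, chr19:3912875-3913024, minus strand): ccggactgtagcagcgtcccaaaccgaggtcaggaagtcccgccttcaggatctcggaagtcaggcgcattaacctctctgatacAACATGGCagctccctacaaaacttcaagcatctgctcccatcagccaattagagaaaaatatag

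In C1q-high cells the members together took 21090 CPM (CD, 95% interval 21006 to 21175), 19974 (HFD, 19866 to 20082) and 8488 (WD, 8465 to 8512). CD and HFD lay close together and WD far below both. The shares of the complexes among member UMIs were similar in CD and HFD. Complex I, which oxidises NADH, held 33.9% of them (CD), 35.1% (HFD) and 31.6% (WD). Complex V held 27.3%, 26.6% and 30.1%, and complex IV, cytochrome c oxidase, 24.1%, 23.9% and 24.4%. Complex III, which passes electrons to cytochrome c, held 12.3%, 11.9% and 11.5%, and complex II, succinate dehydrogenase, 2.32%, 2.38% and 2.36%. The WD library had a smaller share of complex I and a larger share of complex V than CD and HFD, beyond the counting intervals of these shares (31.5 to 31.7% for complex I and 30.0 to 30.2% for complex V in WD). The intervals of CD and HFD also lay apart for complexes I, III and V. For complex I they were 33.8 to 34.1% (CD) and 34.9 to 35.4% (HFD), and for complex V 27.1 to 27.5% and 26.4 to 26.9%. Per member, the mean level in CD C1q-high cells was 194 CPM in complex I, 122 in complex II, 326 in complex III, 391 in complex IV and 359.9 in complex V. These are 3′ tag counts, 1 per captured molecule, which were not divided by transcript length.

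**Figure D1:**
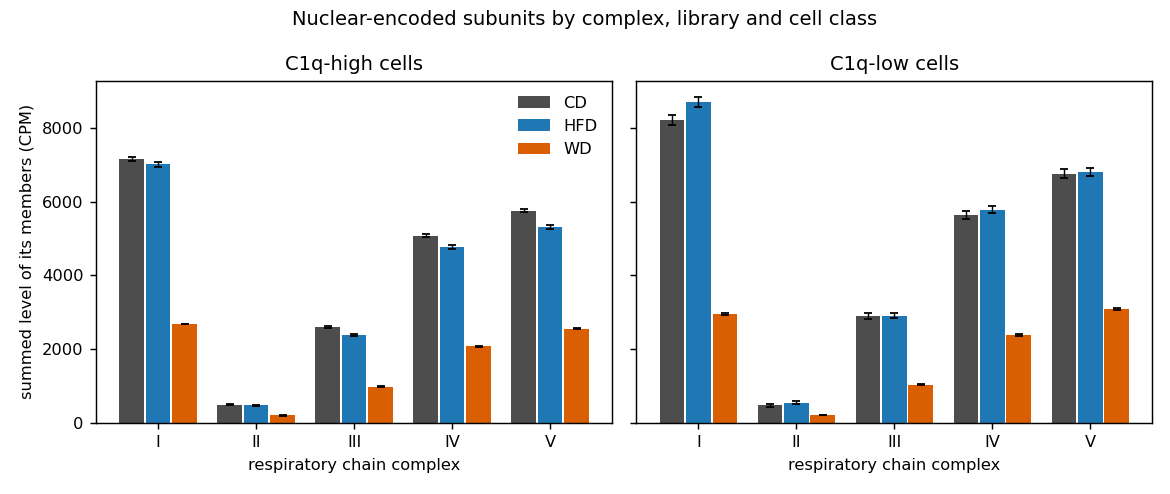
Bars give the summed level (CPM) of the nuclear-encoded subunits of each complex in C1q-high and C1q-low cells, by library, with exact Poisson 95% intervals. CD and HFD bars are of similar height in every complex, and all WD bars are lower.

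Within complexes I and III the core subunits had a lower median level than the other subunits. The 7 nuclear subunits of the catalytic core of complex I had a median of 122 CPM in CD C1q-high cells, and the other 30 a median of 188 CPM; the grouping by role was made after the values were known. Ndufs1, the largest iron-sulfur subunit of the core, was at 25.3 CPM (CD), 25.9 (HFD) and 21.3 (WD). Ndufv1, which binds NADH, was at 50.7, 46.1 and 26.0 CPM. In CD these were the lowest of the complex after Ndufa4l2. The small accessory subunit Ndufa2 was the highest there, with 481 CPM, and stood at 428 CPM in HFD and 158 in WD. In complex III the core proteins Uqcrc1 and Uqcrc2 and the Rieske iron-sulfur protein Uqcrfs1 ranged from 90.5 to 186 CPM in CD, and the 5 small subunits from 315 to 564 CPM. Uqcrb, one of these, was at 564 CPM (CD), 502 (HFD) and 189 (WD). The members with the highest CD level in complexes IV and V were Cox6b1, with 712, 644 and 224 CPM, and Atp5l, subunit g of the ATP synthase, with 804, 734 and 259 CPM. The transcript end of Atp5l recurs in 12 other annotated genes, 11 of them pseudogenes, and 1 of the 12 is among the shared genes. Such matches, of at least 95% identity over at least 100 of the last 300 bases, existed for 21 of the 78 members. For 5 of these members a matching gene was among the shared genes. Overlapping genes were not told apart from copies, and how reads that match several genes were handled was not checked. The levels of the 21 members are uncertain to that extent.

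The 4 subunits of complex II, the one complex with no mitochondrially encoded part, were expressed at similar levels in CD and HFD. Sdha, the flavoprotein that oxidises succinate, was at 116 CPM (CD), 112 (HFD) and 62.9 (WD). Sdhb, the iron-sulfur subunit, was at 196, 194 and 56.8 CPM. The membrane anchors Sdhc and Sdhd were at 83.4, 82.6 and 42.3 CPM and at 94.2, 85.6 and 38.1 CPM. Sdhb exceeded Sdha in CD and HFD, and Sdha exceeded Sdhb in WD. Among the 3 genes for the c-ring, the rotor of the ATP synthase, whose mature proteins are identical, Atp5g2 (357, 316 and 199 CPM) and Atp5g1 (314, 312 and 116 CPM) exceeded Atp5g3 (113, 100.5 and 83.2 CPM). Cox7a2, a complex IV subunit, was at 390, 365 and 157 CPM, and Cox7a2l, which links complexes III and IV into supercomplexes, at 415, 416 and 229 CPM. A few members were scarce. Cox7b2 and Cox8c were at 0 UMIs in all 3 libraries and both classes, which allows up to 0.263 CPM (CD), 0.455 (HFD) and 0.0501 (WD) in C1q-high cells at 3 counts. Ndufa4l2 stood at 1.67, 2.88 and 0.568 CPM, and Atp5s, a coupling factor renamed Dmac2l, at 4.92, 4.70 and 4.71 CPM.

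HFD and CD C1q-high cells differed little in the members. The summed level was 0.947 times that of CD (0.941 to 0.953), with 0.980 (0.969 to 0.991) for complex I, 0.970 (0.928 to 1.01) for complex II, 0.916 (0.898 to 0.933) for complex III, 0.941 (0.928 to 0.954) for complex IV and 0.924 (0.912 to 0.936) for complex V. Of 74 members with at least 100 UMIs over both libraries, the minimum used for all ratios, 55 were below and 19 above a ratio of 1. The median log2 ratio was -0.07, against -0.04 over 8541 genes. A member or gene was counted as past the threshold at 1.5-fold: 0 of 74 members were higher and 0 lower by that much, where 3.22% of all genes were higher and 5.00% lower. The members below the minimum were Ndufa4l2, Atp5s, Cox7b2 and Cox8c.

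In complex V the lowest ratio was that of Atp5k, subunit e in the membrane part of the ATP synthase, with 284 CPM in CD and 207 in HFD, a log2 ratio of -0.46 (-0.55 to -0.37). The next were subunits of the F1 head, which makes ATP: Atp5c1, the central shaft, at -0.37 (-0.45 to -0.28), Atp5b, the catalytic subunit, at -0.30 and Atp5a1 at -0.22. All 5 head subunits lay below 0, with a median of -0.22, whereas the 4 peripheral stalk subunits, the stator that holds the head, lay between -0.10 and 0.09 (Atp5j, coupling factor 6, at 428 and 456 CPM). In complex III, Uqcrc1 was lowest at -0.41 (-0.53 to -0.30), with 186 CPM in CD and 139.9 in HFD, and Uqcrfs1 was highest at 0.03. In complex IV the range ran from Cox7b, with 267 and 218 CPM and -0.29, to Cox7a2l at 0.00. Complex II spanned from Sdhd at -0.14 to Sdhc at -0.01.

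Complex I held the members with higher ratios. Ndufa8, an accessory subunit of the intermembrane space, was at 139.5 CPM in CD and 162 in HFD, a log2 ratio of 0.22 (0.10 to 0.33). Ndufa6, Ndufa5 and Ndufc2, other accessory subunits, were at 0.19, 0.17 and 0.17. The lowest of the complex was Ndufa3 at -0.30 (-0.38 to -0.22), with 331 and 269 CPM. Counting intervals excluded a ratio of 1 upward for 6 members, 5 of them in complex I, and downward for 29, of which 10 were in complex V, 7 in complex IV, 7 in complex I and 5 in complex III. These intervals carry no spread between animals. The share of all genes whose intervals exclude 1 was not counted, so these counts cannot be set against a background.

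**Figure D2:**
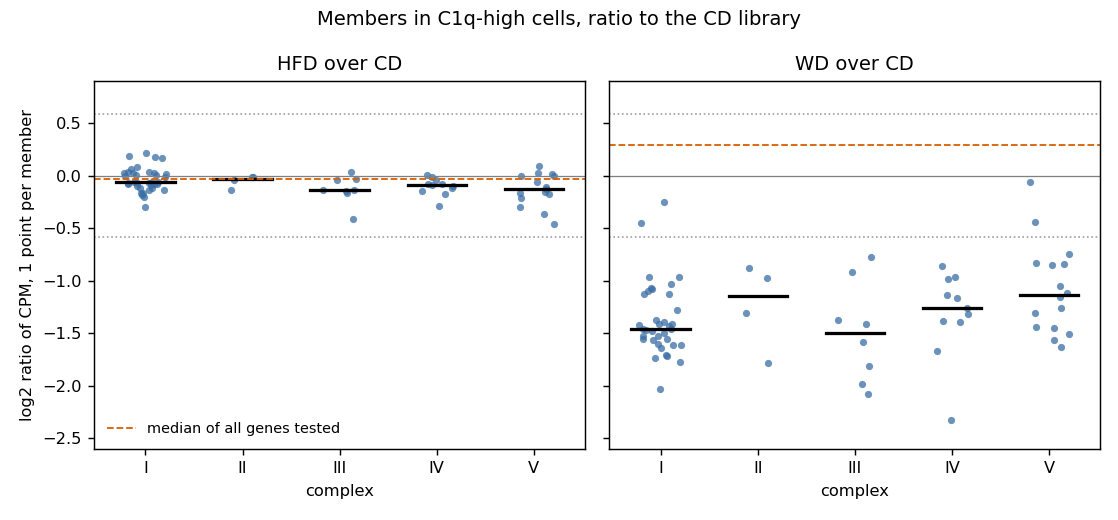
Each point is 1 member in C1q-high cells, placed by its complex and by its log2 ratio of CPM to the CD library, with black bars for the median of a complex, dotted lines at 1.5-fold and an orange line for the median of all genes tested. HFD points stay within 1.5-fold, and WD points lie mostly below it.

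Members were lower in C1q-high cells with high MHC class II, the antigen presentation genes, and such cells were a larger share of the HFD library. Cells with at least 2% of UMIs from H2-Aa, H2-Ab1, H2-Eb1 and Cd74 made up 53.9% of C1q-high cells (CD, 51.8 to 56.0%), 68.2% (HFD, 66.1 to 70.3%) and 45.0% (WD, 43.4 to 46.6%). Between 9.89% (HFD) and 31.3% (WD) of cells lay between 1% and 3%, so this class too is a range and not a type. The member level at or above 2% was 20028 CPM (CD), 18934 (HFD) and 8299 (WD), and below it 22357, 22138 and 8640 CPM. The ratio was 0.896 (0.889 to 0.903), 0.855 (0.846 to 0.865) and 0.960 (0.955 to 0.966), below 1 in all 3 libraries. The 4 genes themselves took 6.65%, 8.86% and 3.43% of the UMIs of the cells at or above the division, and CPM of all other genes are lower by that share. With them left out of the total, a choice made after the data were seen, the ratio was 0.955, 0.934 and 0.987. With these genes in the total, HFD against CD was 0.945 (0.937 to 0.954) in cells at or above 2% and 0.990 (0.980 to 1.00) in cells below it. Without them in the total, the member level at or above 2% was 21454 CPM in CD and 20773.5 in HFD. Below 2% it was then 22465 CPM in CD and 22234.5 in HFD, so part of the lower ratio at or above 2% came with the scaling. Over all C1q-high cells HFD against CD was 0.970 (0.964 to 0.977) without these genes in the total.

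C1q-high cells marked by proliferation or resident macrophage genes had higher member levels than the others. In cells with at least 0.3% of UMIs and at least 3 UMIs from proliferation genes, 85 (CD), 55 (HFD) and 68 (WD), the member level was 23602, 23004 and 10578 CPM, which was 1.13, 1.16 and 1.254 times that of the other C1q-high cells. Their median depth was also higher, with 6605, 5075 and 23872 UMIs against 4280.5, 2910 and 12173, and its part in this was not tested. In cells marked by resident macrophage genes (654, 509 and 1022 cells) the member level was 1.03, 1.08 and 1.11 times that of the rest. In 91 CD cells marked by a lipid-associated list it was 1.12 times that of the rest (1.10 to 1.14), and the 37 HFD and 13 WD cells so marked were too few for a value at the minimum of 50. Between HFD and CD the ratio was 0.975 (0.946 to 1.00) in the proliferation-marked and 0.978 (0.965 to 0.990) in the resident-marked cells.

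**Figure D3:**
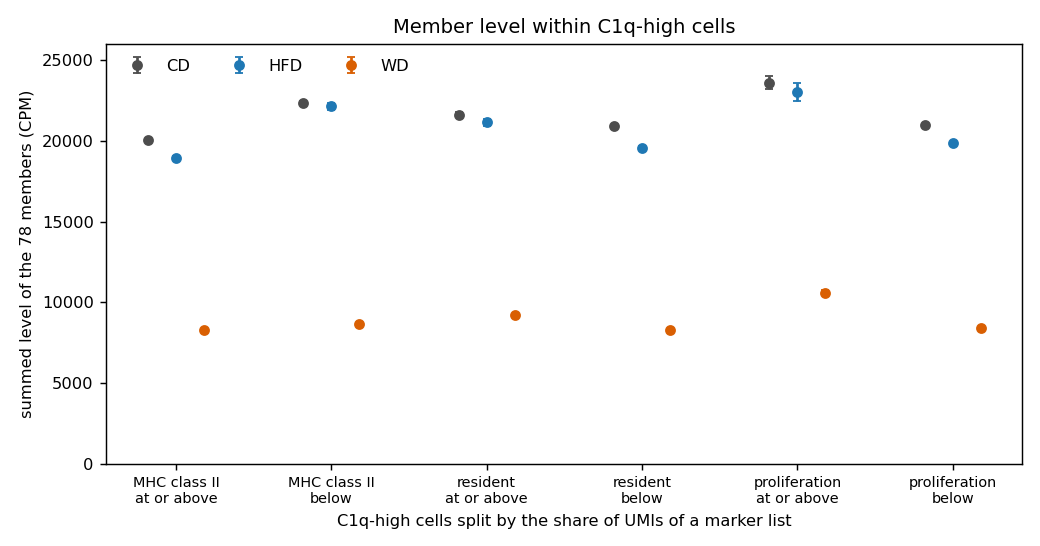
Points give the summed member level (CPM) in C1q-high cells at or above and below the division on 3 marker lists, by library, with exact Poisson 95% intervals. Levels are lower in the cells high for MHC class II and higher in those marked for proliferation or residency, in CD, HFD and WD.

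In C1q-low cells, which hold many endothelial cells in CD and HFD, the members took 23999 CPM in CD and 24767 in HFD, a ratio of 1.03 (1.02 to 1.05). The median log2 ratio was 0.05 over 74 members, against 0.07 over 4766 genes. Of these members 2 were higher past 1.5-fold and 0 lower, where 9.67% of all genes were higher and 7.22% lower. One was Ndufs1, with 21.9 and 41.8 CPM from 36 and 87 UMIs (log2 ratio 0.93, 0.36 to 1.53). The other was Ndufa4l2, an Ndufa4 relative known from hypoxia and from mural cells, with 20.1 CPM in CD and 79.2 in HFD (1.98, 1.43 to 2.57). Cox4i2, a hypoxia-linked isoform of Cox4 outside the rule, stood at 14.6 and 95.5 CPM. The mural list of 6 genes stood at 24.3 CPM in CD C1q-low cells and at 1938 in HFD, and 38 HFD cells but 0 CD cells had it as their largest marker list; its part in the Ndufa4l2 values was not tested. Among cells whose largest list was endothelial, 198 in CD and 493 in HFD, the member level was 27041 and 23748 CPM, a ratio of 0.878 (0.861 to 0.896), so the direction there was opposite to that of all C1q-low cells. Among cells marked by none of the lists, 85 in CD and 110 in HFD, the ratio was 0.928 (0.906 to 0.950). In C1q-low cells with no cardiomyocyte marker UMI, 151 in CD and 325 in HFD, the ratio was 0.980 (0.959 to 1.00), and in those with at least 1 it was 1.06 (1.05 to 1.08). The parts of muscle RNA, depth and cell mixture in the pooled ratio were not tested. With cells weighted equally, the median over members was -0.02. Complex II had the highest ratio of the complexes in C1q-low cells, 1.17 (1.07 to 1.28), with Sdha at 118 CPM in CD and 167 in HFD and Sdhb at 200.1 and 195 CPM.

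The WD library had lower levels of nearly all members. In C1q-high cells the summed level was 0.402 times that of CD (0.401 to 0.404), with 0.375 for complex I, 0.409 for complex II, 0.376 for complex III, 0.408 for complex IV and 0.443 for complex V. The median log2 ratio was -1.39 over 75 members, while that of 11568 genes was 0.30. Of the 75 members, 71 were lower past 1.5-fold and 0 higher, where 28.8% of all genes were lower and 43.4% higher. Against HFD the median was -1.30 and again 71 of 75 members were lower and 0 higher (27.5% and 43.3% of all genes). In C1q-low cells 72 of 74 members were lower than in CD and 0 higher, with a median of -1.38 (31.0% and 42.9% of all genes), and 71 of 75 were lower than in HFD and 0 higher, with a median of -1.40 (32.1% and 42.4%). The comparisons with CD and with HFD use the same WD cells and are not independent.

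Members differed in how far below CD they were. The lowest ratio was that of Cox6a1, the common form of a complex IV subunit that also has a muscle form, with 556 CPM (CD), 539 (HFD) and 111 (WD), a log2 ratio of -2.33 (-2.38 to -2.28) to CD. Uqcrc1 followed at -2.07 (186, 139.9 and 44.3 CPM) and Ndufa3 at -2.03 (331, 269 and 81.0 CPM). Lowest in complexes II and V were Sdhb at -1.79 and Atp5l at -1.63. For Cox6a1 CD and HFD lay near each other and WD alone was low. Its transcript end recurs in 1 other annotated gene, which is not among the shared genes, and its level is among those called uncertain above. The part of this in its WD ratio was not tested. The members not past 1.5-fold were Atp5s at -0.06 (-0.48 to 0.38, from 56 and 282 UMIs), Ndufs1 at -0.25 (-0.44 to -0.06), Atp5g3 at -0.44 with 113, 100.5 and 83.2 CPM, and Ndufs4 at -0.45 with 87.9, 87.6 and 64.2 CPM. Against HFD these same 4 members were not past 1.5-fold. In C1q-low cells Ndufs1 and Ndufs4 were not past it against CD, and Ndufs4, Cox6b2, Cox7b and Atp5e against HFD. Highest in the other complexes were Uqcrh, the acidic hinge protein of complex III, at -0.78, Cox7a2l at -0.86 and Sdha at -0.88. By role, the c-ring had a median of -0.85 and the F1 head of -1.05, and the small subunits of complex III one of -1.58. The order of members by level was still alike, with a Spearman coefficient of 0.94 between CD and WD and of 0.99 between CD and HFD over the 78 genes of C1q-high cells; genes are not replicates, and this is a description.

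The gene's intron content moved with the WD ratio over all genes. The Spearman coefficient between total intron length and the log2 ratio of WD to CD was 0.60 over 11561 genes, and 0.11 for HFD to CD over 8536 genes. Over the 75 members it was 0.19 for WD to CD. The members are short genes, with a median of 5368 intronic bases against 18889 for all genes tested. Within each group of similar intron length the members' median was lower than that of all genes. In genes with under 2000 intronic bases the median log2 ratio was -1.39 for 16 members and -0.79 for 1270 genes. From 2000 to 5000 bases it was -1.44 for 18 members and -0.87 for 1068 genes, and from 5000 to 10000 bases -1.43 for 24 members and -0.53 for 1525 genes. From 10000 to 20000 bases, 7 members had a median of -1.38 and 2095 genes one of -0.15. From 20000 to 50000 bases, 9 members had a median of -0.98 and 2811 genes one of 0.60. Ndufs4, with 97756 intronic bases, was the single member above 50000, where 2792 genes had a median of 1.94. Cytosolic ribosomal protein genes, short and abundant like the members, had medians of -0.51 over 52 genes under 2000 bases and -0.45 over 20 genes from 2000 to 5000. Longer ones were few, with a median of -0.36 over 4 genes from 5000 to 10000 bases. From 10000 to 20000 bases 1 gene was at -1.03, and from 20000 to 50000 bases 2 genes had a median of -0.66. The sources used here do not say whether the WD counts include intronic reads. The part of intron length in the members' WD ratios was not tested.

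**Figure D4:**
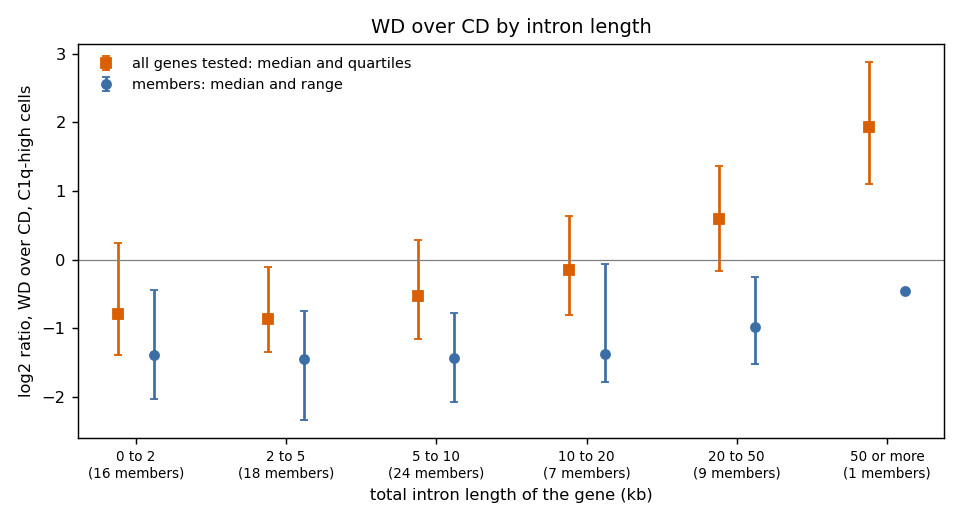
Log2 ratios of WD to CD in C1q-high cells are plotted by the total intron length of the gene (kb), with squares and bars for the median and quartiles of all genes tested and circles and bars for the median and range of members. Both medians are higher in the longest genes, where the last group holds 1 member, Ndufs4. In every length group the members' median, or this single value, lies below the median of all genes.

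C1q-high cells had lower summed member levels than C1q-low cells of the same library, and the direction depended on scaling. The summed level was 0.879 times that of C1q-low cells (CD, 0.869 to 0.888), 0.806 (HFD, 0.798 to 0.815) and 0.876 (WD, 0.870 to 0.881). Complex V had a ratio of 0.851, 0.782 and 0.827, complex I one of 0.871, 0.805 and 0.905, complex IV one of 0.901, 0.825 and 0.866, and complex III one of 0.897, 0.819 and 0.943. Complex II was at 1.04 (CD, 0.966 to 1.12), 0.863 (HFD, 0.806 to 0.924) and 0.959 (WD, 0.918 to 1.00). An exact two-sided sign-flip permutation test over the 3 libraries gave p = 0.25 for complexes I, III, IV and V, the smallest p that 3 libraries allow, and p = 0.5 for complex II (Benjamini-Hochberg adjusted over 5 complexes 0.3125 and 0.5), so the threshold of 0.05 could not be reached. For complex II the mean log2 ratio was -0.07 over the 3 libraries and -0.00053 without the HFD library.

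The median log2 ratio of members was -0.20 (CD), -0.31 (HFD) and -0.17 (WD), where all genes tested had -0.13, -0.22 and -0.13. Of the members tested, 5 of 74 were lower past 1.5-fold (CD), 9 of 75 (HFD) and 1 of 75 (WD), and 0 were higher in each, where 19.2%, 26.9% and 17.7% of all genes were lower and 15.2%, 16.2% and 10.1% higher. With TMM scaling, which centres on genes that change little, the medians turned to 0.07, 0.03 and 0.06. In WD the direction also turned with a C1q threshold of 1%, to 0.27, which moved 2639 of its 3717 C1q-high cells to the C1q-low class, and with cells weighted equally, to 0.14. Over cells without any endothelial marker UMI, which left 127 CD, 113 HFD and 799 WD C1q-low cells, the medians were -0.03 (CD), -0.05 (HFD) and -0.06 (WD). Within C1q-high cells the levels by C1q share also differed in order. Cells with 0.3 to 1% were at 22717 CPM (CD), 21592 (HFD) and 8006 (WD), and cells with 1 to 2% at 21149, 19617 and 9859 CPM, so the order in WD was opposite to that in CD and HFD.

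Single members had larger differences between the classes. In CD the lowest ratios were those of Ndufa8, with 139.5 CPM in C1q-high and 229.96 in C1q-low cells (log2 ratio -0.72, -0.88 to -0.56), Uqcrfs1, with 134 and 214 CPM (-0.67), and Atp5j, with 428 and 679.5 CPM (-0.67). Ndufa6 and Uqcrc2 were the other 2 past 1.5-fold there. Ndufa8 and Atp5j were past it in HFD too, at -0.76 and -0.80, but not in WD, at -0.24 and -0.12. In HFD the lowest were Ndufa4l2 at -4.78 (19 and 165 UMIs), Ndufv1 at -0.99 (46.1 and 91.2 CPM) and Atp5b at -0.90 (397 and 740.2 CPM). In WD the one member past 1.5-fold was Cox6b2, known as a testis isoform, with 6.07 and 10.5 CPM (-0.79, -1.09 to -0.48), and Cox7b (-0.53) and Atp5f1 (-0.46) came next. Highest were Sdhc (0.47), Ndufs7 (0.27) and Ndufs1 (0.21) in CD, Ndufa2 (0.14), Cox6b2 (0.12) and Ndufv3 (-0.00) in HFD, and Sdhc (0.19), Ndufc2 (0.19) and Ndufs7 (0.17) in WD.

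**Figure D5:**
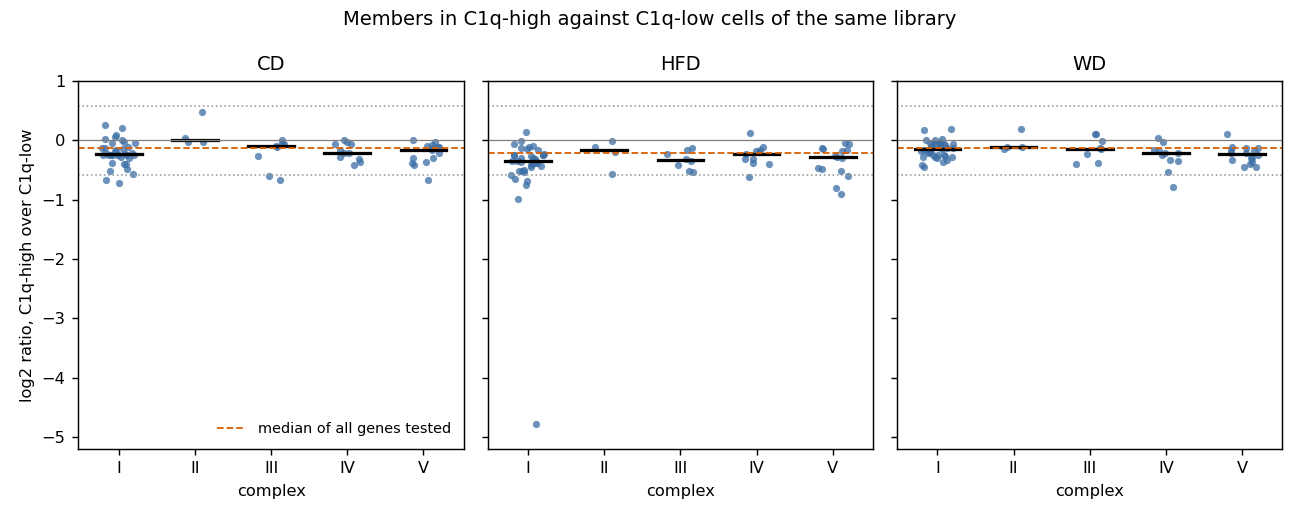
Each point is 1 member, placed by its complex and by its log2 ratio of C1q-high to C1q-low cells of the same library, with black bars for the median of a complex, dotted lines at 1.5-fold and an orange line for the median of all genes tested. Most points lie between 0 and the lower dotted line, and Ndufa4l2 in HFD lies far below it.

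Per cell, the median share of UMIs from members in C1q-high cells was 2.0% (CD, quartiles 1.69 and 2.31), 1.92% (HFD, 1.61 and 2.26) and 0.795% (WD, 0.645 and 0.962). In C1q-low cells it was 2.31%, 2.27% and 0.738% (quartiles 1.99 and 2.81 in CD, 1.94 and 2.61 in HFD, 0.295 and 1.14 in WD). Among WD C1q-low cells the summed member level was 6084 CPM in 95 cells whose largest marker list was that of neutrophils, 9358 in 224 monocyte-marked, 11361 in 142 NK- and T-marked and 9882 in 534 cells marked by none.

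Genes of the chain that the rule misses were also lowest in WD. Cyc1, the cytochrome of complex III, was at 107, 100.5 and 32.6 CPM in CD, HFD and WD C1q-high cells, Cox4i1, the largest nuclear subunit of complex IV, at 1064, 1018 and 500 CPM, and Ndufab1, the acyl carrier protein in complex I, at 134, 127 and 61.0 CPM. The 13 mitochondrially encoded subunits had a higher summed level in HFD and WD than in CD: it was 1.15 times CD in HFD (1.14 to 1.15) and 1.26 times in WD (1.252 to 1.260). The limit of 10% mitochondrial UMIs had removed 6.33% (CD), 11.9% (HFD) and 26.1% (WD) of the barcodes, and its part in this was not tested. Of 43 assembly factors, which build the complexes, 40 passed the minimum for HFD against CD, with a median of -0.04, 1 higher and 1 lower. For WD against CD all 43 passed, with a median of -1.004, 4 higher and 27 lower. The 13 tricarboxylic acid cycle genes, which supply the electrons, had medians of -0.15 (0 past 1.5-fold) and -0.76 (3 higher, 7 lower). Of 10 regulators of mitochondrial biogenesis, 6 passed the minimum for HFD against CD (median -0.07, 0 past 1.5-fold) and 9 for WD against CD (median 0.70, 5 higher, 2 lower). Of all genes, 3.22% were higher and 5.00% lower past 1.5-fold for HFD against CD. For WD against CD these shares were 43.4% and 28.8%. The counts of these lists, small for the regulators, were not tested against these shares.

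Heart muscle RNA was present in the droplets of all libraries. The summed level of 10 cardiomyocyte markers in C1q-high cells was 274 CPM (CD), 594 (HFD) and 323 (WD), and in C1q-low cells 1193, 895 and 208 CPM, with all 10 genes detected in each. Between HFD and CD C1q-high cells 9 of the 10 were higher past 1.5-fold (median log2 ratio 1.13), and so were 2 of the 3 muscle isoforms of complex IV (median 0.60). Of all genes 3.22% were higher by that much. These isoforms were at 21.8, 38.2 and 16.9 CPM for Cox6a2, 26.6, 30.5 and 11.2 for Cox7a1, and 9.92, 15.0 and 6.50 for Cox8b in C1q-high cells. In C1q-high cells with no cardiomyocyte marker UMI, 1174 in CD and 733 in HFD, the members' HFD to CD ratio was 0.925 (0.914 to 0.935), and in those with at least 1 it was 0.952 (0.944 to 0.960). For WD against CD it was 0.409 (0.404 to 0.413) without and 0.397 (0.395 to 0.3997) with such UMIs. C1q-low cells with cardiomyocyte UMIs had higher member levels than those without, 25151 against 22239 CPM in CD and 26762 against 21798 in HFD. In WD the levels were close, at 9736 against 9610 CPM. The part of muscle RNA in the members' values was not tested beyond this. Barcodes shared with another library numbered 16 of the CD, 15 of the HFD and 1 of the WD cells.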

How the data were processed

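Per the file headers and the values, the authors deposited raw UMI counts per gene and barcode for each library, with no normalization; the matrices were written by software version 3.0.1 (CD, HFD) and 7.2.0 (WD). Genome build GRCm38 and Seurat are named per the submitters' processing notes; for intronic reads and the authors' cell filters, the handling is not stated in these sources. Per the labels, 3′ v2 kits were used for all libraries, though most WD barcodes lie outside the CD barcode list. Genes were joined by Ensembl ID. UMIs of cells passing 1000 UMIs, 200 genes and 10% mitochondrial UMIs were summed per library and C1q class (threshold 0.3%) and expressed as CPM of the total over 30406 genes listed in all libraries, which left out 0.049% (CD), 0.051% (HFD) and 0.627% (WD) of UMIs. A second Atp5o entry absent from the WD list was not used. Intervals (95%) are exact: Poisson for levels, conditional binomial for ratios, Clopper-Pearson for shares. Ratios needed 100 UMIs over both groups, and 1.5-fold was the threshold. No doublet caller was run; an alternative drops the 5% deepest cells. The functions were tested on simulated data. Python 3.11.15, numpy 2.4.6, scipy 1.17.1 and pandas 2.3.3 were used.

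Members, lists, thresholds and tests were chosen with earlier results of these data known. Members named with values are, per complex, the one with the highest CD level and the highest and lowest ratio for HFD and WD against CD, the 3 highest and 3 lowest ratios of C1q-high to C1q-low cells per library, and fixed sets (complex II, Atp5g1 to Atp5g3, Cox7a2 and Cox7a2l, muscle isoforms, Cyc1, Cox4i1, Ndufab1). A few others (such as Ndufv1, Atp5c1, Ndufa6 and Cox4i2) and the role groups were chosen after their values were seen. Alternatives varied cell filters, the C1q threshold, weighting, thinning to 1000 UMIs, scaling, the UMI minimum, marker-free cells and the fold.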

Additional observations from a re-analysis of the deposited data

Results flagged for a closer look

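Complex II is singled out because it had opposite signs between libraries in the comparison of C1q-high with C1q-low cells. The log2 ratio of its summed level was 0.06 (CD), -0.21 (HFD) and -0.06 (WD). The difference between libraries was not tested, and the intervals in CD and WD include a ratio of 1.

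Barcodes with under 100 UMIs enter no comparison and are singled out because they hold member RNA. They carried the members at 12386.5 CPM in CD and 12672 CPM in HFD, with cardiomyocyte markers at 1118 and 1469 CPM and mitochondrially encoded subunits at 571018 and 553044 CPM. The WD file lists no barcode that low, so such a level was not analysed there. Its part in the values of cells was not tested.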

How the results depend on the processing

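No paired analysis was possible because each diet has 1 library, as far as the diet comparisons go, and there no library could be left out. C1q-high and C1q-low cells were compared within libraries; leaving out each library in turn, an alternative chosen after seeing the data, the mean log2 ratio of the summed level ran from -0.26 to -0.17 (complex I), -0.14 to -0.00053 (II), -0.22 to -0.12 (III), -0.24 to -0.18 (IV) and -0.31 to -0.25 (V), and 2 libraries allow no p below 0.5. Values below are median log2 ratios of members. Between HFD and CD C1q-high cells the median was -0.03 with cells thinned to 1000 UMIs, -0.04 with the median of all genes set to 0 or, an alternative chosen after seeing the data, without MHC class II genes in the total, and -0.13 in cells without cardiomyocyte UMIs. The count of members past the fold was 1 when thinned, with a minimum of 20 UMIs or with no minimum beyond 1 UMI, and 3 at a lower fold. In C1q-low cells it was 5 when thinned, 0 with a mitochondrial limit of 5%, 8 at the lower fold and 1 at 2-fold. There the median was 0.12 with a minimum of 2000 UMIs or a mitochondrial limit of 20%, 0.10 with a C1q threshold of 0.1%, 0.02 with TMM, -0.02 with a limit of 5%, equal weights or the median of all genes at 0, -0.00 when thinned, -0.04 without cardiomyocyte and -0.01 without endothelial UMIs. WD against CD and HFD in C1q-high cells gave -1.12 and -1.05 with a C1q threshold of 1% and -1.69 and -1.59 with the median of all genes at 0, and TMM gave -1.54 against CD. In C1q-low cells the pair was -1.20 and -1.18 with a limit of 5%, -1.59 and -1.72 with 20%, -1.55 and -1.65 with a threshold of 1%, -1.75 and -1.71 with equal weights, -1.76 and -1.64 when thinned and -1.62 and -1.61 with the median of all genes at 0. Against CD alone it was -1.23 with a threshold of 0.1% and -1.48 with mitochondrial, ribosomal and haemoglobin genes out of the total. C1q-high against C1q-low cells in CD gave -0.24 (limit 20%), -0.27 (equal weights), -0.31 (thinned), 0.07 (TMM), -0.26 (reduced total), -0.07 (all genes at 0), -0.09 (no cardiomyocyte UMI) and -0.03 (no endothelial UMI). In HFD it gave -0.20 (limit 5%), -0.44 (20%), 0.03 (TMM), -0.09 (all genes at 0), -0.18 (no cardiomyocyte UMI) and -0.05 (no endothelial UMI). In WD it gave -0.25 (5%), -0.03 (20%), -0.31 (threshold 0.1%), 0.27 (1%), 0.14 (equal weights), 0.16 (thinned), 0.06 (TMM), -0.04 (all genes at 0) and -0.06 (no endothelial UMI). The cause was not tested. The other 106 member medians moved by less than the interval of the main median, and 112 counts stayed within 1.5 times. WD kept its direction against CD and HFD under the alternatives run.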
